A study of Oryctolagus cuniculus with 20 samples.

Results

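The genes described here encode the proteasome, the enzymes that activate and conjugate ubiquitin, ubiquitin ligases and deubiquitinases, in tricuspid valves of rabbits treated with serotonin or with a valvulopathic drug. They were chosen from the list of genes that the study called differentially expressed, that is, on measured values of the same valves: a listed gene was taken where its symbol starts with PSM, UBA and a digit, UBE2, UBE3, UBE4, CUL and a digit, FBXO, FBXL, FBXW, RNF, TRIM, USP or OTUD and its printed identifier is in the count table. This gave 95 of the 23669 genes of the table, and all 95 were among the 8683 genes that passed the filter on low counts. The members are 17 genes of the proteasome, 10 activating (E1) and conjugating (E2) enzymes, 14 cullin and F-box ligase (E3) genes, 24 RING and HECT ligases, 11 TRIM ligases and 19 deubiquitinases. A further 16 listed names carry an identifier that is not in the counts as printed, and they are not members.

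Adult female New Zealand white rabbits took serotonin (80 mg/kg per day), pergolide (0.5 mg/kg per day), dexfenfluramine (20 mg/kg per day by the sample labels) or plain water by mouth for 16 weeks, after which RNA of the tricuspid valve was sequenced. The article does not state the same dexfenfluramine dose throughout, and the dose in its Methods is that of the labels. Serotonin is a monoamine, pergolide an ergot-derived dopamine agonist and dexfenfluramine a former appetite suppressant, and both drugs are known to cause valve disease in patients. There were 20 valves, 5 in each group, and the water group is called non-treated. Total counts per valve ran from 3247091 to 5921025. The valves are numbered within each group, with w for non-treated, s for serotonin, p for pergolide and d for dexfenfluramine.

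Ubiquitin is a small protein that an E1 enzyme activates, an E2 enzyme carries and an E3 ligase attaches to a target. A chain of ubiquitin sends the target to the proteasome, a barrel-shaped protease capped by a regulatory particle that unfolds proteins, while deubiquitinases remove the chain. In striated muscle, a small group of ligases (the MuRF proteins TRIM54, TRIM55 and TRIM63, and FBXO32, also called atrogin-1) is tied to the contractile apparatus and to muscle wasting.

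Because the members were selected on the difference of a treatment from non-treated valves, their values in these comparisons are a description, without a test. Levels are given as CPM, the reads of a gene relative to the TMM-scaled total of its valve, and fold changes are log2 values ± standard error from a fit of all 20 valves, with n = 5 valves in each group. A member is called where the Benjamini-Hochberg adjusted p of edgeR's quasi-likelihood test over all 8683 genes is under 0.05.

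Some valves stood apart in their muscle transcripts. Of 20 cardiomyocyte markers, 12 had a symbol (taken from the same list of differentially expressed genes) and passed the filter, none was at 0 and TTN, the giant sarcomere protein titin, was the most abundant. Their summed level was 144161, 107669, 49830.5, 152694 and 98263 CPM in non-treated valves, 53883, 105127, 61019.9, 98204 and 64254 CPM with serotonin, 83077, 93001, 93396, 53164 and 48464 CPM with pergolide and 71591, 53028, 12592, 61084 and 72037 CPM with dexfenfluramine. Valve d3 was the lowest of all and w3 the lowest non-treated valve, and the groups overlapped. The mean was 110523 ± 41085 CPM (SD, n = 5) in non-treated valves against 76497 ± 23408 CPM with serotonin, 74221 ± 21827 CPM with pergolide and 54066 ± 24498 CPM with dexfenfluramine. The median log2 fold change of the 12 markers was -0.53 for serotonin, -0.64 for pergolide and -0.98 for dexfenfluramine. Of the 12, 1 passed the test as lower with pergolide and 4 with dexfenfluramine.

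For valvular interstitial cells, the collagen-producing cells of the leaflet, 7 of 10 markers had a symbol, VIM was the most abundant and none was at 0, and the sum was 6836, 6110.4, 7519, 5069 and 5490.3 CPM in non-treated valves, 7131, 5660.3, 7534, 6918 and 7004 CPM with serotonin, 7259, 8091, 6886, 8758 and 10437 CPM with pergolide and 8437, 9139, 10776, 7627 and 8483 CPM with dexfenfluramine. Of these 7 markers 5 passed the test as higher with pergolide and 4 with dexfenfluramine. VIM was not among them, and its log2 fold changes were -0.07 (serotonin), -0.08 (pergolide) and 0.37 (dexfenfluramine). The most counted gene, ENSOCUG00000029084, took a mean of 40.7 ± 7.39% of the counts of non-treated valves, 35.9 ± 4.07% with serotonin, 32.9 ± 2.13% with pergolide and 29.1 ± 5.65% with dexfenfluramine. The mean TMM factor was 0.821 ± 0.258, 0.896 ± 0.180, 1.12 ± 0.135 and 1.31 ± 0.248 in the same order. Of the adipocyte markers 4 of 9 had a symbol, ADIPOQ was the most abundant and LEP was at 0 in d3, with a sum of 37.2, 24.1, 26.5, 75.6 and 31.5 CPM in non-treated valves, 149, 32.0, 87.4, 67.6 and 75.6 CPM with serotonin, 193, 187, 110.4, 62.3 and 123 CPM with pergolide and 62.0, 103, 3.78, 39.0 and 109.6 CPM with dexfenfluramine, and all 4 passed the test as higher with pergolide. The 2 of 7 endothelial markers with a symbol, PECAM1 (the more abundant) and EMCN, summed to 257, 314, 322, 135 and 303 CPM in non-treated valves, 259, 325, 336, 277 and 285 CPM with serotonin, 216, 149, 117, 194 and 148 CPM with pergolide and 170.4, 205, 264, 201 and 232 CPM with dexfenfluramine, and both were called lower with pergolide. Mean sums for 2 of 7 macrophage markers (C1QA the more abundant) were 16.2 ± 7.30 CPM (SD) in non-treated valves, 21.3 ± 9.84 CPM for serotonin, 32.9 ± 12.5 CPM for pergolide and 28.7 ± 4.22 CPM for dexfenfluramine, and C1QA was called higher with pergolide. For 3 of 6 smooth muscle markers (DES the most abundant) they were 428 ± 151 CPM, 371 ± 72.2 CPM, 414 ± 34.4 CPM and 315 ± 132 CPM in that order. TAGLN was called higher with both drugs and MYH11 lower with dexfenfluramine, and no T cell or erythroid marker had a symbol.

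In whole valves, fewer cells of a type and less RNA per cell cannot be told apart. The part of these differences in the values of the ubiquitin and proteasome genes was not tested. All markers had their symbol through the list of differentially expressed genes, so that nothing is read from the counts of markers called. Of all genes tested, 12.1% were called higher and 12.7% lower with pergolide, and 13.5% higher and 15.4% lower with dexfenfluramine.

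With pergolide 56 of the 95 members were called, 22 higher and 34 lower, where 12.1% and 12.7% of all genes tested were called higher and lower. With dexfenfluramine 68 were called, 27 higher and 41 lower, beside 13.5% and 15.4% of all genes. The choice of members fixes these counts and those of each class and family given below, and nothing is read from them. Both comparisons use the same non-treated valves. When w3 and d3 were left out, 62 members were called with pergolide (21 higher, 41 lower) and 60 with dexfenfluramine (21 higher, 39 lower), beside 2463 and 2468 of all 8683 genes, against 2157 and 2510 with all valves. Called for no treatment were 17 members by the fit used here. Near that threshold were PSMD4 and RNF25 on the inside, with a largest log2 fold change of 0.46 and 0.65 in size, and PSMC2 and FBXO32 on the outside, with 0.32 and 0.51. When 4 surrogate variables were added to limma-voom, which estimate unrecorded differences between samples, 26 members were called with pergolide and 24 with dexfenfluramine, beside 1156 and 987 of all 8683 genes.

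The classes did not lie on the same side of 0. Median log2 fold changes with pergolide and dexfenfluramine were -0.34 and -0.37 for the proteasome, -0.36 and -0.43 for E1 and E2 enzymes, -0.59 and -0.41 for TRIM ligases and -0.33 and -0.30 for deubiquitinases. They were 0.28 and 0.36 for cullin and F-box genes and 0.21 and 0.05 for RING and HECT ligases, beside 0.02 and 0.03 over all genes tested. The members were selected on differences from non-treated valves and all genes were not, so that these sets are unlike. A gene table of the newer rabbit assembly holds 50 protein-coding symbols with the proteasome prefix, of which 17 are members. With all prefixes it holds 361, of which 92 are members. The medians describe the listed members and not whole classes. Over the alternatives the dexfenfluramine median of TRIM ligases ran from -0.48 to -0.23. The RING and HECT medians changed sign, to -0.01 and -0.17, when only genes with at least 10 counts in every valve were kept. The dexfenfluramine median of this class also changed sign without w3 and d3 (-0.0053), when single valves were left out (lowest value -0.0095) and for its 23 RNF genes alone (-0.12), and it was 0.15 with the listed names whose identifier has an extra zero, so that its direction is not settled.

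**Figure D1:**
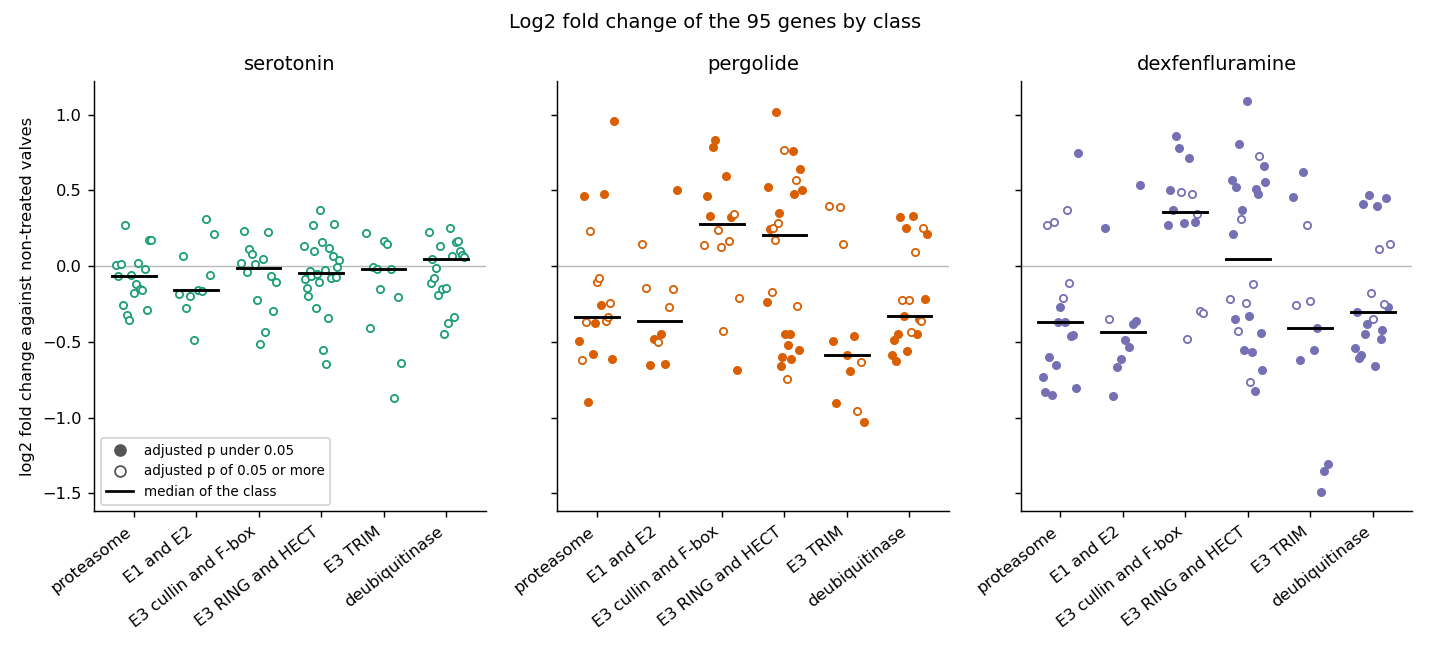
Log2 fold change against non-treated valves (vertical axis) of the 95 members by class (horizontal axis) for serotonin, pergolide and dexfenfluramine. Each point is a gene, filled where the adjusted p was under 0.05, and black lines are class medians, which lie above 0 for cullin and F-box genes (0.28 and 0.36) and below 0 for the proteasome (-0.34 and -0.37) with the drugs.

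Relative to the non-treated mean, the mean log2 CPM of the cullin and F-box genes was -0.09, 0.00, 0.03, -0.01 and 0.06 in non-treated valves, -0.02, -0.04, -0.07, -0.03 and -0.11 with serotonin, 0.21, 0.23, 0.12, 0.28 and 0.28 with pergolide and 0.27, 0.32, 0.26, 0.34 and 0.37 with dexfenfluramine, so that every drug valve lay above every other valve. The proteasome mean was 0.14, -0.01, -0.24, 0.14 and -0.02 in non-treated valves, -0.11, 0.04, -0.15, -0.09 and -0.04 with serotonin, -0.12, -0.09, -0.09, -0.28 and -0.33 with pergolide and -0.25, -0.33, -0.42, -0.25 and -0.19 with dexfenfluramine. Here w3, the non-treated valve with the lowest cardiomyocyte sum, lay among the drug valves, and d3 was the lowest of all. Nothing is read from the separation of the groups, because the genes were selected on values of these valves.

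**Figure D2:**
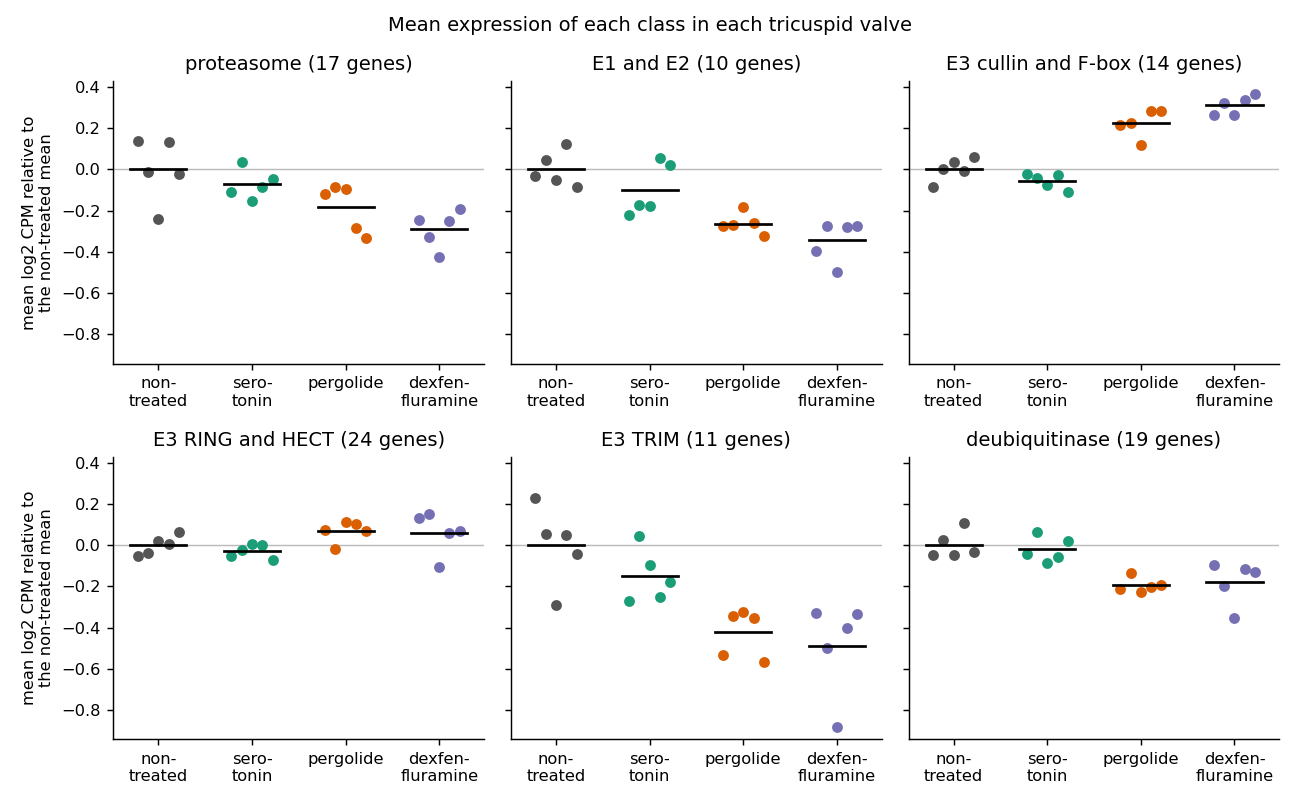
Mean log2 CPM of the genes of each class relative to the non-treated mean (vertical axis) in each valve of the 4 groups (horizontal axis). Points are valves and black lines group means, which for the proteasome were -0.07 ± 0.07 (SD) with serotonin, -0.18 ± 0.12 (SD) with pergolide and -0.29 ± 0.09 (SD) with dexfenfluramine.

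Among the 17 members of the proteasome class, 3 were called higher and 6 lower with pergolide, and 1 higher and 11 lower with dexfenfluramine. The 5 members that belong to the catalytic core particle had medians of -0.49 and -0.73, and 4 of the 5 lay below 0 with each drug. PSMB6 (ENSOCUG00000011848) encodes the core subunit with caspase-like activity, and its level was 90.9, 70.2, 50.9, 60.3 and 46.9 CPM in non-treated valves, 72.9, 107, 69.3, 72.9 and 60.1 CPM with serotonin, 45.0, 37.6, 33.9, 25.0 and 29.0 CPM with pergolide and 24.1, 37.7, 28.3, 40.4 and 44.7 CPM with dexfenfluramine. All 10 drug valves lay below the other 10, with w5 closest to them. The log2 fold change was -0.90 ± 0.20 (SE) with pergolide, -0.85 ± 0.20 with dexfenfluramine and 0.27 ± 0.20 with serotonin. With surrogate variables it was -0.29 and -0.09 for the drugs, and without s2 the serotonin value was 0.12. PSMA6 (ENSOCUG00000015635), a subunit of the outer ring of the core, stood at 54.1, 94.0, 46.7, 104 and 56.6 CPM in non-treated valves, 64.1, 58.9, 47.3, 55.2 and 113 CPM with serotonin, 51.5, 49.0, 44.0, 43.3 and 43.1 CPM with pergolide and 39.4, 40.7, 27.7, 44.0 and 47.1 CPM with dexfenfluramine. Valves w2, w4 and s5 were far above the others of their groups, and both drug groups overlapped the non-treated valves. Its log2 fold change was -0.62 ± 0.23 with pergolide and -0.83 ± 0.23 with dexfenfluramine.

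The core subunit PSMB4 went the opposite way. PSMB4 (ENSOCUG00000015257) has no protease activity of its own and takes part in assembly of the core, and it measured 14.8, 13.01, 14.2, 13.8 and 14.3 CPM in non-treated valves, 15.6, 14.9, 14.3, 10.99 and 14.9 CPM with serotonin, 19.9, 16.1, 19.6, 21.3 and 19.7 CPM with pergolide and 14.8, 18.8, 17.3, 15.8 and 17.8 CPM with dexfenfluramine. Pergolide valves lay above the non-treated and serotonin valves, and dexfenfluramine valves lay just above the non-treated ones and overlapped the serotonin ones. The log2 fold change was 0.46 ± 0.11 with pergolide and 0.27 ± 0.11 with dexfenfluramine. In the regulatory particle, PSMD14 (ENSOCUG00000001418), the deubiquitinase of its lid, measured 19.8, 12.5, 14.0, 17.4 and 20.9 CPM in non-treated valves, 14.2, 18.4, 14.3, 14.2 and 14.9 CPM with serotonin, 24.3, 24.4, 28.9, 21.6 and 18.1 CPM with pergolide and 24.3, 21.4, 22.0, 19.6 and 22.0 CPM with dexfenfluramine. Drug valves overlapped the upper non-treated valves w1 and w5, and the log2 fold change was 0.48 ± 0.14 with pergolide and 0.37 ± 0.14 with dexfenfluramine. PSMD12 (ENSOCUG00000013922), a scaffold subunit of the same lid and the most counted gene of the class, had a log2 fold change of -0.26 ± 0.08 and -0.37 ± 0.08, and its drug valves did not overlap the non-treated ones.

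The 8 members among the regulatory subunits without ATPase activity had medians of -0.25 with pergolide and -0.32 with dexfenfluramine. PSMD14 alone of the 8 was above 0 with either drug. Of the 3 members among the ATPases that unfold the target, PSMC5 and PSMC6 were called lower with both drugs and PSMC2 was not called. PSMG2, a chaperone of core assembly that was picked out after its value was seen, had the highest fold change of the class, 0.96 ± 0.20 with pergolide and 0.75 ± 0.21 with dexfenfluramine, at 2.89, 2.44, 3.86, 3.53 and 4.60 CPM in non-treated valves, 6.51, 9.57, 6.11, 5.63 and 6.40 CPM with pergolide and 6.88, 6.38, 4.50, 6.15 and 5.77 CPM with dexfenfluramine. When surrogate variables were included, the proteasome median was -0.18 with pergolide and -0.09 with dexfenfluramine, and PSMD14 had 0.63 with dexfenfluramine.

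**Figure D3:**
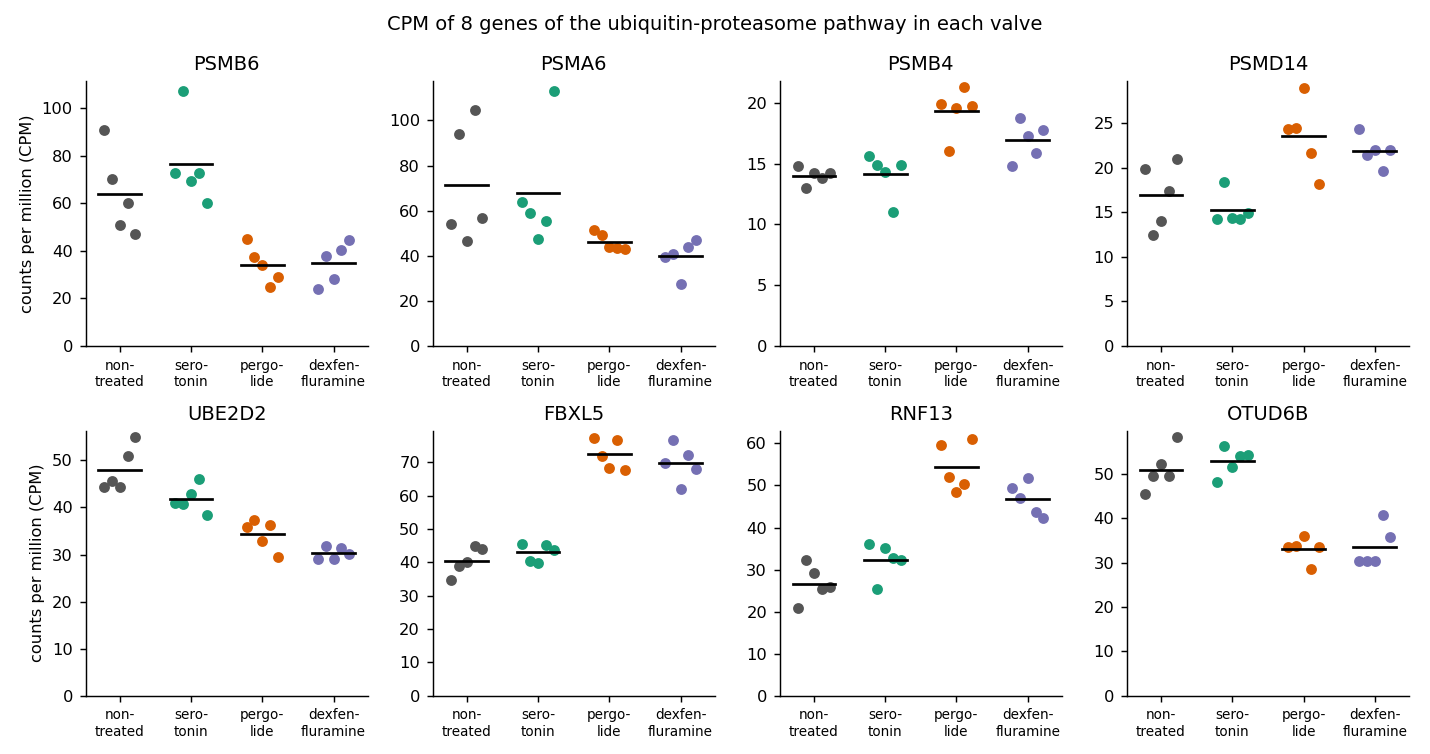
CPM (vertical axis, from 0) of 8 members in each valve of the 4 groups (horizontal axis). Points are valves and black lines group means, and the drug valves of FBXL5 and RNF13 lie above, and those of PSMB6, UBE2D2 and OTUD6B below, all non-treated and serotonin valves.

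Of the 10 E1 and E2 enzymes, 1 was called higher and 4 lower with pergolide, and 2 higher and 7 lower with dexfenfluramine. With the listed names whose printed identifier has an extra zero included, the pergolide median of the class was -0.15 in place of -0.36. Among these names, picked out after their values were seen, UBE2E3 had 1.37 and 1.49 with pergolide and dexfenfluramine, UBE2NL had 0.89 and 0.57 and UBE2A had 0.45 and 0.36, all E2 genes above 0. Among the 8 E2 members, 7 lay below 0 with each drug, with medians of -0.47 and -0.51. UBE2D2 (ENSOCUG00000029448), a conjugating enzyme that serves many ligases, was at 44.4, 45.5, 44.4, 50.9 and 55.0 CPM in non-treated valves, 41.0, 40.8, 43.0, 46.1 and 38.5 CPM with serotonin, 35.8, 37.2, 32.9, 36.2 and 29.5 CPM with pergolide and 29.0, 31.9, 29.0, 31.3 and 30.1 CPM with dexfenfluramine. Every drug valve lay below every non-treated and serotonin valve, and the log2 fold change was -0.48 ± 0.08 with pergolide, -0.67 ± 0.08 with dexfenfluramine and -0.20 ± 0.08 with serotonin. Its close relatives UBE2D1 (ENSOCUG00000002952) and UBE2D4 (ENSOCUG00000008900) had log2 fold changes of -0.65 ± 0.18 and -0.50 ± 0.22 with pergolide and of -0.85 ± 0.18 and -0.62 ± 0.22 with dexfenfluramine. The UBE2D genes are nearly identical in sequence and may share reads, so that their separate values are uncertain. UBE2D4 had -0.40 with dexfenfluramine in the fit with surrogate variables.

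UBE2L3 (ENSOCUG00000002610) alone of the 8 E2 members was above 0 with the drugs. This partner of HECT and RING-between-RING ligases measured 9.02, 9.21, 9.13, 10.9 and 10.4 CPM in non-treated valves, 7.69, 10.8, 9.94, 13.7 and 14.3 CPM with serotonin, 11.7, 14.7, 15.0, 11.8 and 15.7 CPM with pergolide and 12.7, 15.9, 14.0, 14.4 and 13.6 CPM with dexfenfluramine. Drug valves lay above all non-treated valves, serotonin valves spread over both ranges, and the log2 fold change was 0.50 ± 0.15 and 0.54 ± 0.15. UBA1 (ENSOCUG00000008376), the main E1 enzyme of ubiquitin, had a log2 fold change of 0.14 ± 0.08 with pergolide (0.095 without w5) and 0.25 ± 0.08 with dexfenfluramine, and UBE2J1 (ENSOCUG00000005288), which acts in degradation at the endoplasmic reticulum, had -0.27 ± 0.13 and -0.38 ± 0.13.

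Among the 14 cullin and F-box genes, which supply the scaffold and the target-binding subunits of cullin-RING ligases, 6 were called higher and 1 lower with pergolide, and 8, all higher, with dexfenfluramine. FBXL5 (ENSOCUG00000011774), an iron-sensing F-box protein that directs the breakdown of iron regulatory protein, measured 34.6, 39.0, 40.2, 45.0 and 43.9 CPM in non-treated valves, 45.7, 40.5, 39.7, 45.3 and 43.8 CPM with serotonin, 77.4, 71.9, 68.3, 76.9 and 67.8 CPM with pergolide and 69.9, 76.7, 61.9, 72.1 and 68.0 CPM with dexfenfluramine. The lowest drug valve, d3, was above the highest of the other valves, and the log2 fold change was 0.83 ± 0.08 with pergolide, 0.78 ± 0.08 with dexfenfluramine and 0.08 ± 0.08 with serotonin. FBXL4 (ENSOCUG00000007892), a mitochondrial F-box protein, was at 14.1, 10.6, 8.08, 11.5 and 8.51 CPM in non-treated valves, 10.7, 12.3, 8.77, 15.3 and 8.71 CPM with serotonin, 22.4, 17.3, 16.4, 17.4 and 15.7 CPM with pergolide and 20.0, 17.6, 18.4, 21.1 and 16.8 CPM with dexfenfluramine. Drug valves again lay above all others, and the log2 fold change was 0.78 ± 0.17 and 0.86 ± 0.17. FBXW10 (ENSOCUG00000015802), an F-box protein with WD repeats, had the lowest value of the class with pergolide, -0.69 ± 0.21, and -0.29 ± 0.21 with dexfenfluramine, and w1 was far above its other non-treated valves. Without w1 the dexfenfluramine value was -0.095. With surrogate variables the class medians were 0.13 and 0.19, and FBXW10 had -0.33 and 0.02.

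The 24 RING and HECT ligases were divided, with 8 called higher and 8 lower with pergolide and 10 higher and 7 lower with dexfenfluramine. RNF13 (ENSOCUG00000006055), a ligase of endosomal and lysosomal membranes, measured 20.9, 32.2, 29.1, 25.3 and 25.8 CPM in non-treated valves, 36.1, 25.3, 35.1, 32.7 and 32.3 CPM with serotonin, 59.6, 52.1, 48.5, 50.3 and 61.0 CPM with pergolide and 49.5, 47.0, 51.8, 43.6 and 42.3 CPM with dexfenfluramine. All drug valves lay above all others, and the log2 fold change was 1.02 ± 0.11 with pergolide, 0.80 ± 0.11 with dexfenfluramine and 0.27 ± 0.12 with serotonin. RNFT1 (ENSOCUG00000021230), a RING protein of membranes, had 0.64 ± 0.17 and 0.66 ± 0.17. On the lower side, RNF20 (ENSOCUG00000012019), which ubiquitinates histone H2B, was at 145, 128, 135, 130.3 and 133 CPM in non-treated valves, 142, 173, 137, 137 and 162 CPM with serotonin, 101, 107, 89.3, 101 and 92.9 CPM with pergolide and 101, 106, 112, 111.5 and 103 CPM with dexfenfluramine. Drug valves lay below all others, with a log2 fold change of -0.45 ± 0.08 and -0.33 ± 0.08. RNF34 (ENSOCUG00000005957) had -0.61 ± 0.15 and -0.83 ± 0.15, RNF6 (ENSOCUG00000015583) had -0.26 ± 0.11 and -0.44 ± 0.11, and the drug valves of both lay below their non-treated valves. RNF207 (ENSOCUG00000005002), a RING protein of heart muscle, had -0.75 ± 0.33 and -0.76 ± 0.33, with its lowest values in d3 at 2.34 CPM, p2 at 4.95 CPM and w3 at 7.02 CPM. This gene was called for no treatment. Surrogate variables gave dexfenfluramine values of -0.20 for RNF20, -0.29 for RNF6 and -0.24 for RNF207.

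Of the 11 TRIM ligases, 6 were called with pergolide, all lower, and 2 were called higher and 6 lower with dexfenfluramine. The 3 lowest values of the class with dexfenfluramine were those of the striated muscle ligases. TRIM63 (ENSOCUG00000013564), the best known of them, measured 84.8, 78.6, 40.0, 131 and 89.0 CPM in non-treated valves, 37.0, 89.6, 41.8, 63.6 and 39.3 CPM with serotonin, 43.1, 51.1, 53.5, 31.5 and 27.0 CPM with pergolide and 54.0, 26.2, 8.10, 42.3 and 40.1 CPM with dexfenfluramine. TRIM55 (ENSOCUG00000005522) was at 140.0, 104, 43.0, 157 and 69.7 CPM in non-treated valves, 61.3, 142, 54.1, 91.2 and 94.1 CPM with serotonin, 74.7, 63.2, 90.4, 54.2 and 46.8 CPM with pergolide and 37.9, 41.4, 12.4, 56.8 and 51.1 CPM with dexfenfluramine. For both genes the groups overlapped, d3 was the lowest of the 20 valves, w3 the lowest and w4 the highest of the non-treated valves. TRIM54 (ENSOCUG00000017035) measured 43.3, 29.0, 9.13, 40.0 and 26.0 CPM in non-treated valves, 10.0, 22.8, 17.5, 18.8 and 10.7 CPM with serotonin, 16.1, 25.8, 16.9, 10.4 and 5.34 CPM with pergolide and 14.4, 6.89, 0.540, 7.27 and 22.1 CPM with dexfenfluramine, the value of d3 resting on 3 reads. The log2 fold changes with dexfenfluramine were -1.31 ± 0.37 for TRIM63, -1.35 ± 0.36 for TRIM55 and -1.49 ± 0.52 for TRIM54, and with pergolide they were -1.03 ± 0.36, -0.63 ± 0.35 and -0.96 ± 0.50. All 3 were called lower with dexfenfluramine, but only 1 of the 3 with pergolide.

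The F-box ligase FBXO32 (ENSOCUG00000005112), also of striated muscle, was at 213, 184, 123, 257 and 220.2 CPM in non-treated valves, 110.2, 176, 143, 144 and 125 CPM with serotonin, 153, 181, 154, 129 and 124 CPM with pergolide and 174, 123, 93.4, 154 and 171 CPM with dexfenfluramine. Its groups overlapped, d3 was the lowest valve and w3 the lowest non-treated valve, and the log2 fold change was -0.51 ± 0.18 with serotonin, -0.43 ± 0.18 with pergolide and -0.48 ± 0.18 with dexfenfluramine. In these 4 ligases d3 and w3, which had the lowest cardiomyocyte sums of their groups, were also the lowest of their groups, and the part of the muscle transcripts in the fold changes was not tested. FBXO40, a striated muscle ligase whose listed identifier has an extra zero, is not a member and was picked out after its values were seen. It had -0.39 ± 0.35 with serotonin, -0.74 ± 0.35 with pergolide and -1.24 ± 0.36 with dexfenfluramine. Its groups overlapped, and w3 at 82.0 CPM and d3 at 20.9 CPM were the lowest of their groups. With surrogate variables the pergolide value was -0.61 for TRIM63, 0.04 for TRIM55, -0.01 for TRIM54 and -0.13 for FBXO32. The dexfenfluramine value was then -0.47 for TRIM63, 0.11 for TRIM54, -0.28 for TRIM55 and 0.03 for FBXO32. Over the alternative fits the serotonin value of FBXO32 ran from -0.65 to -0.20. When w3 and d3 were both left out, the dexfenfluramine values were -1.25 for TRIM63, -1.33 for TRIM55 and -1.44 for TRIM54.

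**Figure D4:**
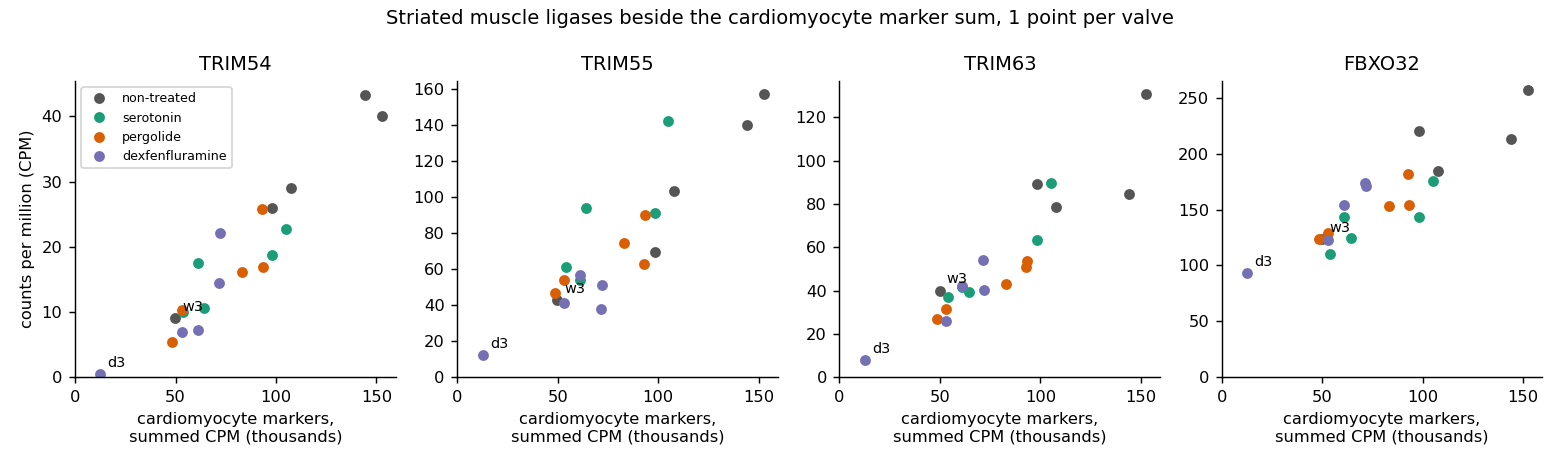
CPM of TRIM54, TRIM55, TRIM63 and FBXO32 (vertical axes) against the summed CPM of 12 cardiomyocyte markers (horizontal axes), 1 point per valve. The valve d3 lies lowest on both axes in each plot and w3 lies lowest of the non-treated valves.

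The other 8 TRIM genes had medians of -0.48 with pergolide and -0.24 with dexfenfluramine. TRIM27 (ENSOCUG00000010343) measured 9.74, 13.3, 13.5, 11.5 and 11.04 CPM in non-treated valves, 10.7, 9.49, 20.7, 9.39 and 8.43 CPM with serotonin, 12.6, 15.7, 14.1, 18.1 and 17.4 CPM with pergolide and 18.9, 19.8, 21.8, 14.7 and 16.4 CPM with dexfenfluramine. Dexfenfluramine valves lay above all non-treated valves, s3 was far above its group, and the log2 fold change was 0.39 ± 0.20 and 0.62 ± 0.19. TRIM2 (ENSOCUG00000005292) had 0.39 ± 0.16 and 0.46 ± 0.16, with d3 the highest valve at 45.0 CPM, and 0.30 with dexfenfluramine without d3. The identifier listed as TRIM39-RPP21 (ENSOCUG00000014141) had -0.59 ± 0.18 and -0.23 ± 0.18, and its reads are uncertain because it spans a pair of neighbouring genes. After adding surrogate variables TRIM27 had 0.12 and 0.18, TRIM2 had 0.16 with dexfenfluramine and TRIM39-RPP21 had -0.35 with pergolide.

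The 19 deubiquitinases comprised 15 USP and 4 OTUD genes. With pergolide 4 were called higher and 9 lower, and with dexfenfluramine 4 higher and 10 lower. The 4 OTUD members, listed because the study called them, were also called lower here with both drugs, with medians of -0.54 and -0.56. Of all genes tested 12.7% were called lower with pergolide and 15.4% with dexfenfluramine. OTUD6B (ENSOCUG00000000218) measured 45.5, 49.6, 52.1, 49.4 and 58.2 CPM in non-treated valves, 48.2, 56.3, 51.4, 53.9 and 54.2 CPM with serotonin, 33.5, 33.8, 36.0, 28.5 and 33.4 CPM with pergolide and 30.3, 30.3, 30.4, 40.6 and 35.7 CPM with dexfenfluramine. Drug valves lay below all others, and the log2 fold change was -0.63 ± 0.09 with pergolide, -0.61 ± 0.09 with dexfenfluramine and 0.05 ± 0.09 with serotonin. OTUD3 (ENSOCUG00000006571) had -0.59 ± 0.18 and -0.54 ± 0.18, and its drug valves overlapped the non-treated ones.

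Among the USP genes, USP3 (ENSOCUG00000014775), which removes ubiquitin from histones, measured 27.8, 26.6, 27.9, 26.5 and 27.8 CPM in non-treated valves, 30.1, 36.4, 33.0, 31.1 and 32.0 CPM with serotonin, 32.8, 41.2, 30.8, 32.4 and 34.7 CPM with pergolide and 35.1, 32.2, 39.2, 31.1 and 42.2 CPM with dexfenfluramine. Every treated valve, serotonin included, lay above every non-treated valve, and the log2 fold change was 0.25 ± 0.10 with serotonin, 0.33 ± 0.10 with pergolide and 0.40 ± 0.10 with dexfenfluramine. USP11 (ENSOCUG00000008403) had 0.33 ± 0.11 and 0.41 ± 0.11. USP9X (ENSOCUG00000007198), the most counted deubiquitinase, had 0.21 ± 0.06 and 0.15 ± 0.06, and its drug valves lay above all non-treated valves. The pergolide median of the class was -0.22 and the dexfenfluramine median -0.19 with surrogate variables. In that fit OTUD3 had -0.30 and -0.26 with the drugs, and with pergolide USP3 had 0.52 and USP11 had 0.19.

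A list of 115 other genes of the pathway was also examined, of which 35 had a symbol, again only through the list of differentially expressed genes. With pergolide 18 of the 35 were called higher and 5 lower, and with dexfenfluramine 14 higher and 6 lower, beside 12.1% and 12.7%, and 13.5% and 15.4%, of all genes tested. Because of how the symbols were found, nothing is read from these counts. The 4 genes that follow were picked on their values, as the 2 highest and the 2 lowest of the list by the mean fold change of the drugs. CAND1 (ENSOCUG00000005019), which exchanges the target-binding subunits of cullin-RING ligases, measured 42.9, 48.2, 52.0, 50.0 and 46.9 CPM in non-treated valves, 55.7, 45.6, 51.7, 50.1 and 41.3 CPM with serotonin, 77.6, 80.0, 82.0, 93.4 and 90.5 CPM with pergolide and 89.5, 85.3, 89.1, 76.2 and 79.2 CPM with dexfenfluramine. RPS27A (ENSOCUG00000015239), which encodes ubiquitin fused to a ribosomal protein, was at 32.5, 43.6, 35.1, 32.4 and 46.2 CPM in non-treated valves, 38.2, 32.6, 38.6, 33.8 and 46.1 CPM with serotonin, 77.6, 59.3, 56.3, 70.0 and 72.8 CPM with pergolide and 65.2, 69.3, 74.9, 63.0 and 71.5 CPM with dexfenfluramine. Both were higher in every drug valve than in every other valve, by 0.82 ± 0.09 and 0.80 ± 0.09 for CAND1 and 0.82 ± 0.12 and 0.85 ± 0.12 for RPS27A on the log2 scale. SEM1 (ENSOCUG00000026246), a small subunit of the proteasome lid, measured 277, 143, 123, 179 and 157 CPM in non-treated valves, 183, 334, 152, 225 and 203 CPM with serotonin, 94.8, 112, 119, 71.9 and 77.4 CPM with pergolide and 57.9, 67.2, 61.7, 91.9 and 101 CPM with dexfenfluramine. Its drug valves lay below all non-treated and serotonin valves, with -0.88 ± 0.23 and -1.20 ± 0.23, and COPS4 (ENSOCUG00000003409), a subunit of the signalosome that switches cullins off, had -0.32 ± 0.15 and -0.60 ± 0.15.

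With serotonin, 0 of the 95 members were called by edgeR's quasi-likelihood test, where 1.04% of all genes tested were called higher and 0.15% lower. At an unadjusted p under 0.05 there were 23 members, beside 15.8% of all genes, and nothing is read from this share because the rule used the comparison. DESeq2 called 1 member, USP4 as lower, and limma-voom called 0 with or without surrogate variables. Without valve w3, 4 members were called lower (FBXO32, PSMC2, RNF25 and USP4), and without w3 and d3 PSMC5 was called in addition to these 4. Over all 8683 genes 103 were called with all valves, 263 without w3 and 478 without w3 and d3. Without any other single valve of the non-treated or serotonin groups edgeR called 0 to 151 genes, with 1101 to 1380 at an unadjusted p under 0.05, and in a fit of only these groups it called 0, with 1189. With all valves DESeq2 called 234 genes, limma-voom 114, and limma-voom with surrogate variables 107. These members were picked out by their calls. By class the median was -0.07 for the proteasome, -0.16 for E1 and E2 enzymes, -0.01 for cullin and F-box genes, -0.04 for RING and HECT ligases, -0.02 for TRIM ligases and 0.05 for deubiquitinases. Surrogate variables turned the sign for TRIM ligases (0.058) and deubiquitinases (-0.015) and moved the cullin and F-box median to -0.16 and the proteasome median to -0.0063. The proteasome median was -0.18 without w3 and d3, and that of E1 and E2 enzymes was -0.067 with the names whose identifier has an extra zero. Over the alternatives the cullin and F-box median ran from -0.16 to 0.012, so that its sign is not settled. The deubiquitinase median was as low as 0.018 when single valves were left out. Among the named genes the lowest log2 fold changes were -0.87 ± 0.52 for TRIM54, -0.65 ± 0.17 for RNF25 and -0.64 ± 0.36 for TRIM63. RNF25 (ENSOCUG00000020986), a RING ligase, measured 9.02, 10.8, 7.37, 11.2 and 11.96 CPM in non-treated valves, 5.59, 6.01, 6.72, 6.17 and 7.58 CPM with serotonin, 5.94, 9.23, 6.74, 6.33 and 8.36 CPM with pergolide and 11.4, 9.48, 8.28, 8.95 and 8.18 CPM with dexfenfluramine. Serotonin valves overlapped the non-treated group only through w3. The highest were 0.31 ± 0.13 for UBE2J1, 0.28 ± 0.11 for RNF6 and 0.27 ± 0.12 for RNF13, and RNF6 had 0.18 without s4. UBE2J1 was at 27.1, 28.7, 28.1, 27.7 and 23.9 CPM in non-treated valves against 37.7, 22.8, 28.6, 37.8 and 40.7 CPM with serotonin, and s2 lay below the non-treated range. Surrogate variables gave 0.01 for TRIM54, -0.18 for TRIM63 and 0.14 for RNF13 with serotonin.

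The drugs were also compared with serotonin. The rule did not use these comparisons, but the valves are those by which the members were chosen, so that the counts are not independent of the choice. Between pergolide and serotonin valves 19 members were called higher and 26 lower with pergolide, beside 12.4% and 15.1% of all genes tested. With dexfenfluramine 25 were called higher and 31 lower than with serotonin, beside 13.9% and 16.4%. With surrogate variables 29 members were called against serotonin for pergolide and 26 for dexfenfluramine, beside 1506 and 1381 of all 8683 genes, which had been 2389 and 2631. By class, the proteasome had 4 higher and 5 lower with pergolide and 3 higher and 6 lower with dexfenfluramine, and of the cullin and F-box genes 5 and 8 were called, all higher. PSMB6 differed by -1.16 ± 0.20 and -1.12 ± 0.20 from serotonin, FBXL5 by 0.75 ± 0.08 and 0.70 ± 0.08, RNF20 by -0.61 ± 0.08 and -0.49 ± 0.08, OTUD3 by -0.82 ± 0.18 and -0.77 ± 0.17 and UBE2J1 by -0.59 ± 0.13 and -0.70 ± 0.13. For FBXO32 the differences were 0.09 ± 0.18 and 0.04 ± 0.18, and the serotonin and drug valves overlapped.

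Between the drugs, an ergot derivative and a fenfluramine isomer given at different doses, 0 of the 95 members were called by edgeR, as were 0% of all genes tested. At an unadjusted p under 0.05 there were 5 members, beside 7.06% of all genes, and DESeq2 and limma-voom with and without surrogate variables each called 0 members. These 5, picked out after their values were seen, were RNF128, USP14, UBE2K and UBE2D2, lower with dexfenfluramine, and USP19, higher. The rule did not use this comparison either, but it shares the drug valves, and a p over the threshold does not show that the drugs acted alike. The 95% confidence interval of the log2 difference lay between -1 and 1 for 90 members and between -0.5 and 0.5 for 66, so that larger differences lie outside the interval for most genes and smaller ones do not. It was widest for TRIM54, from -1.62 to 0.55. For PSMB6 the difference was 0.04 ± 0.20, for FBXL5 -0.06 ± 0.08 and for OTUD6B 0.02 ± 0.09. For TRIM55 it was -0.72 ± 0.35 and for FBXW10 0.39 ± 0.21, the lowest and the highest of the 95.

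**Figure D5:**
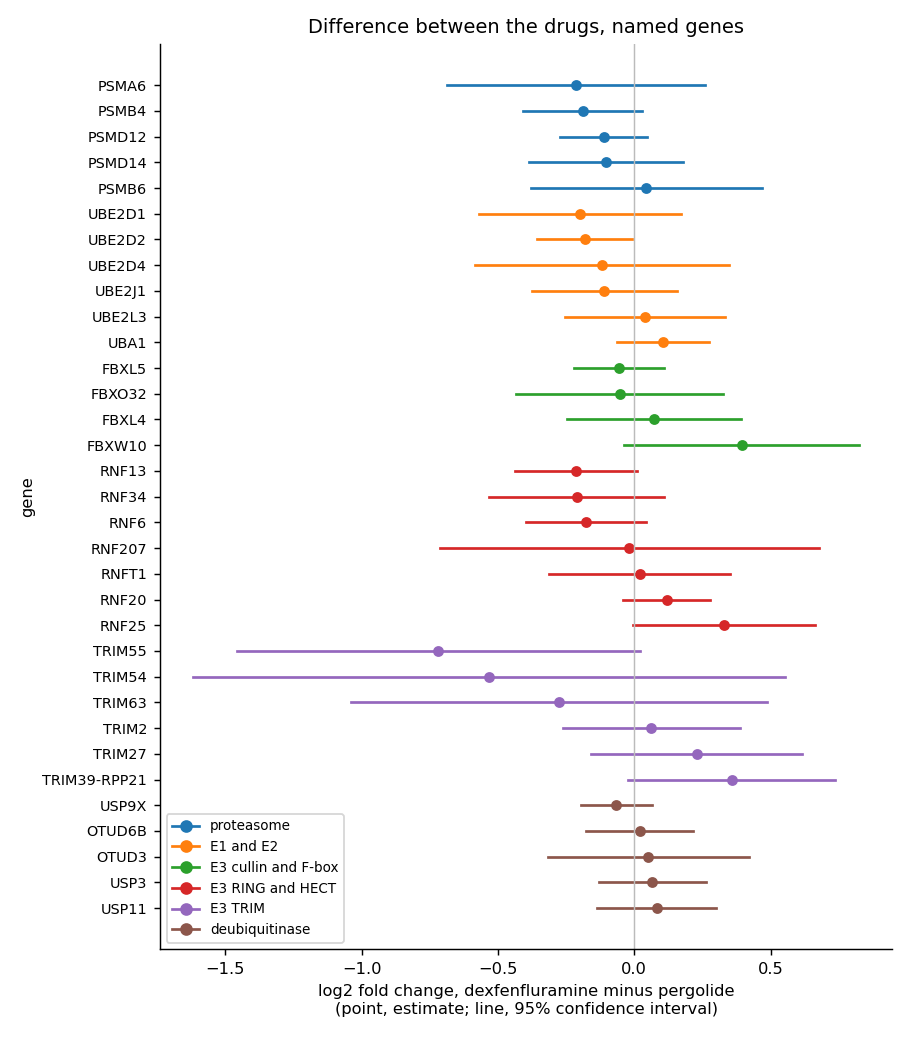
Log2 fold change of dexfenfluramine minus pergolide (horizontal axis) for named members (vertical axis), with 95% confidence intervals as lines and colours for classes. The interval is widest for TRIM54, from -1.62 to 0.55, those of TRIM55 and TRIM63 also reach past -1 or 1, and most others lie within -0.5 and 0.5.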

How the data were processed

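RNA of 20 rabbit tricuspid valves (non-treated, serotonin, pergolide and dexfenfluramine, 5 valves each) was measured by sequencing. The authors depleted ribosomal RNA, made stranded libraries, trimmed the reads, aligned them to the rabbit assembly oryCun2 with TopHat2 2.1.1 and deposited raw counts per Ensembl gene made by HTSeq in union mode, with Picard used for quality metrics.

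From these counts, genes with low counts were removed (filterByExpr, 8683 of 23669 kept), libraries were scaled by TMM, and all 20 valves were fitted together in edgeR 4.0.16 with a quasi-likelihood test (R 4.3.3), adjusted by Benjamini-Hochberg over all genes kept, with a threshold of 0.05. CPM and log2 CPM (prior count 2) were computed from the deposited counts. Other runs used limma 3.58.1, DESeq2 1.42.0 and sva 3.50.0 (4 surrogate variables). Summaries and figures were made in Python 3.11.15 with numpy 2.4.6, pandas 2.3.3, scipy 1.17.1 and matplotlib 3.10.9. Only the edgeR test of pergolide against non-treated valves was tried on simulated counts, and its outcome is not reported here.

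Members were taken by symbol and identifier from the study's list of differentially expressed genes, whose fold changes were not used. The members and the lists of markers and other pathway genes were chosen with earlier results of these data known. Genes were named by a rule: among members with a mean log2 CPM of at least 3, the 2 highest and the 2 lowest of each class by the mean fold change of the drugs, the 3 highest and 3 lowest with serotonin, the most counted gene of each class, and FBXO32, TRIM54, TRIM55, TRIM63 and the UBE2D genes. Of the other pathway genes, the 2 highest and the 2 lowest by the mean fold change of the drugs were named. PSMG2, RNF128, USP14, UBE2K, USP19, USP4, PSMC2, PSMC5, PSMC6, PSMD4, FBXO40, UBE2A, UBE2E3 and UBE2NL were named after their values were seen. Some genes that the rule names are not reported here. Alternatives were DESeq2, limma-voom with and without surrogate variables, other scaling and filters, fits of only the groups compared, a block for the replicate number, and each valve left out in turn. After the data had been seen, the fits without w3 and d3, with the 16 further listed names and without the striated muscle TRIM genes were added. A gene table of the newer rabbit assembly does not pair symbols with these identifiers, so that a list of all genes of the pathway by name was not run, and promoters were not analysed.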

Additional observations from a re-analysis of the deposited data

Results flagged for a closer look

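Among 160 groups of 5 valves examined, 7 held a valve far from its group, by its gap to the nearest valve over the range of the group, and chance flags about 1 in 20 groups. In RNF207 d3 was far below the other dexfenfluramine valves (0.845), as it was in TRIM55 (0.731), and d3 also had the lowest cardiomyocyte marker sum, the part of which was not tested. Valve s3 was far below its group in UBE2D1 (0.764) and far above it in TRIM27 (0.736). In PSMB4 s4 was far below the other serotonin valves (0.753). In PSMD14 s2 was far above them (0.819). In OTUD3 d2 was far above the other dexfenfluramine valves (0.730).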

How the results depend on the processing

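Other scaling, limma-voom without surrogate variables, a fit of only the groups compared and no filter kept the signs of class medians with the drugs. These fits changed no count of called members by over 1.5 times. With serotonin the cullin and F-box median ran from -0.16 to 0.012 over all alternatives. DESeq2 called 1 member with serotonin. With surrogate variables in limma-voom, 26 members were called with pergolide, 24 with dexfenfluramine, 29 for pergolide and 26 for dexfenfluramine against serotonin. The medians then were -0.18 (proteasome), 0.13 (cullin and F-box), 0.068 (RING and HECT), -0.33 (TRIM) and -0.22 (deubiquitinases) with pergolide, -0.094 (proteasome), 0.19 (cullin and F-box) and -0.19 (deubiquitinases) with dexfenfluramine, and -0.16 (cullin and F-box), 0.058 (TRIM) and -0.015 (deubiquitinases) with serotonin. With at least 10 counts in every valve, fewer RING and HECT genes were left and their medians were -0.091 (serotonin), -0.014 (pergolide) and -0.17 (dexfenfluramine). The cause of these changes was not tested.

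With the 16 further names, 63 members were called with pergolide and 75 with dexfenfluramine, and the medians were -0.067 (E1 and E2) with serotonin, -0.15 (E1 and E2) and -0.28 (deubiquitinases) with pergolide and 0.29 (cullin and F-box) and 0.15 (RING and HECT) with dexfenfluramine. Without w3 and d3, the members called were 5 (serotonin), 62 (pergolide) and 60 (dexfenfluramine), and the RING and HECT median was 0.15 with pergolide and -0.0053 with dexfenfluramine. Leaving out each valve in turn gave 0 to 4 members called for serotonin, 45 to 56 for pergolide and 53 to 69 for dexfenfluramine. Of all 8683 genes, these fits called 0 to 263 for serotonin, 1774 to 2280 for pergolide and 2043 to 2799 for dexfenfluramine. Medians over these fits ran from -0.088 to 0.014 (serotonin), 0.19 to 0.33 (pergolide) and 0.30 to 0.40 (dexfenfluramine) for cullin and F-box genes, from -0.075 to 0.0010 (serotonin) and from -0.0095 to 0.11 (dexfenfluramine) for RING and HECT genes, from -0.17 to -0.028 for the proteasome and from -0.073 to -0.0066 for TRIM genes with serotonin, and from -0.34 to -0.22 for deubiquitinases with pergolide.

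With the replicate number as a block, 0 members were called with serotonin, 51 with pergolide, 63 with dexfenfluramine and 0 between the drugs, and 45 and 52 for pergolide and dexfenfluramine against serotonin. Of all 8683 genes the block left 1 called with serotonin, 1988 with pergolide, 2365 with dexfenfluramine and 0 between the drugs. Against serotonin it left 2228 for pergolide and 2485 for dexfenfluramine. Of 30 pairs of valves with the same number 6 had a correlation over 0.1. The mean was -0.02, beside 0.005 for different numbers, and for 5 of 20 valves the best match had their own number. No pairing of valves by number was seen in these values, which cannot exclude a weak one.

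Low depth limits genes of few reads. The members were selected on the same valves, symbols were available only through the list of differentially expressed genes, and whole valves mix cell types.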
